A study of Mus musculus with 4 samples.

Results

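Flcn and Fnip1 encode folliculin and folliculin-interacting protein 1, which bind each other in the folliculin complex, and TFE3 occupancy around their promoters was followed through 3 ChIP-seq peak lists from mouse embryonic fibroblasts. A called peak was taken as a member if it overlapped a 25 kb window on chromosome 11 of the mouse build mm9, from 59610000 to 59635000 for Flcn or from 54240000 to 54265000 for Fnip1. Of 4910 peaks in the 3 lists, 2 were members. Both lay in the Flcn window and came from the stress conditions, 1 from starvation and 1 from tunicamycin. The control list had no peak in the Flcn window, and the Fnip1 window had no peak in any of the 3 lists.

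All cells were mouse embryonic fibroblasts of the strain labelled CRL-2977, grown with 10% serum and fixed in 1% formaldehyde. Control cells stayed in full medium, starved cells spent 2 hours in Earle's balanced salt solution, and treated cells received tunicamycin at 0.1 µg/ml for 16 hours. Tunicamycin blocks N-linked glycosylation and causes endoplasmic reticulum stress. Each condition had 1 library made with an antibody to TFE3, and 1 rabbit IgG library served all 3 lists as background, so no test between conditions was possible and every difference below compares single libraries.

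Folliculin is a tumour suppressor lost in Birt-Hogg-Dubé syndrome. With Fnip1 or its relative Fnip2 it acts on lysosomes as a GTPase-activating protein for the RagC and RagD GTPases, which present TFE3 and its relative TFEB to the kinase mTORC1. Phosphorylation by mTORC1 keeps these factors in the cytoplasm, and starvation releases them to the nucleus. Once there, TFE3 binds the E-box CACGTG and related sequences in the promoters of lysosomal and autophagy genes.

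The promoter sequences of both genes are shown because 1 of the windows held peaks and the other did not. They come from RefSeq on the build GRCm38.p6, not mm9, and give the 250 bases before the annotated start, 5′ to 3′ on the strand of the gene, from chr11:59810040-59810289 (minus strand) for Flcn and chr11:54437929-54438178 (plus strand) for Fnip1. Capitals mark the E-box CACGTG and the sequence TGACGTCA, known as the cAMP response element, which CREB and ATF family factors bind.
Flcn: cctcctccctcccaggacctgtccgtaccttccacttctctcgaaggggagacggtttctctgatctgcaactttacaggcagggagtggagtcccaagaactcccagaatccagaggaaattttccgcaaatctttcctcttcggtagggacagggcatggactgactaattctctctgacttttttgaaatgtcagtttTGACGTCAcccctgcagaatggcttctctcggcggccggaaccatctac
Fnip1: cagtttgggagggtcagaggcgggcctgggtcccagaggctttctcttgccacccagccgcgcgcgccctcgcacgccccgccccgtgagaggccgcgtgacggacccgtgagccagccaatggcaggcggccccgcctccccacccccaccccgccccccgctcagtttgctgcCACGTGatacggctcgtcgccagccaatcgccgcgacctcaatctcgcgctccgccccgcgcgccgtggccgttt

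The 2 promoters differed in motif content. In the full 300-base RefSeq window, which adds 50 bases after the start, the Fnip1 promoter held 1 CACGTG, beginning 75 bases before the start, in the 8-base context CCACGTGA. The Flcn promoter held 0 copies of CACGTG. Of 32851 such mouse promoters, 2349 had this E-box (7.15%). The longer forms TCACGTGA (0.974% of promoters) and GTCACGTG (2.25%) were in neither gene, and CATGTG (14.2%) and TCATGTGA (0.986%) were also in neither, each searched on both strands. TCACGTGA and GTCACGTG contain CACGTG, and TCATGTGA contains CATGTG. The Flcn promoter had 1 TGACGTCA, beginning 49 bases before the start. That sequence was in 588 promoters (1.79%) and not in the Fnip1 window; it was searched after the Flcn sequence had been seen. The share of G and C over 300 bases was 56.7% for Flcn and 70.7% for Fnip1, beside a median of 52.7% over all promoters. The RefSeq span of Fnip1 begins upstream of the start used for this window. A match is a description of letters and not a binding site, and the mm9 peak was not placed on the GRCm38.p6 sequence.

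In starved cells the TFE3 peak at Flcn ran from 59623090 to 59623770 on chromosome 11, a width of 681 bp, with its summit at 59623425. Its score was 419, which ranked 70 of 1712 starvation peaks, and with ties 72 peaks, or 4.21% of the list, stood at or above it (95% exact Clopper-Pearson interval 3.31 to 5.27). The score is 10 times the −log10 of the q-value, and the −log10 q was 42.0. The authors' fold enrichment, a linear ratio of TFE3 signal to local IgG background at the summit, was 12.2, which is 1.90 times the median of the list (6.43). The summit rested on 97 TFE3 tags (95% exact Poisson interval 78.7 to 118), recovered from the deposited fold and p-value, against a list median of 37. These intervals cover counting error only. Among the 136 starvation peaks of chromosome 11 the Flcn peak ranked 11.

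In tunicamycin-treated cells the Flcn peak ran from 59623150 to 59623780, a width of 631 bp, with its summit at 59623466. Its score of 253 ranked 379 of 2776, and with ties 385 peaks, or 13.9% of the list, stood at or above it (interval 12.6 to 15.2). The −log10 q was 25.4. The fold was 10.2, or 1.61 times the list median of 6.32. The summit rested on 85 tags (67.9 to 105), against a list median of 53. Among the 187 tunicamycin peaks of chromosome 11 it ranked 29. Ranks come from lists of different lengths and cannot show whether there was a change between conditions.

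The starvation and tunicamycin peaks covered the same stretch of DNA. They shared 621 bp, which is 91.2% of the starvation peak and 98.4% of the tunicamycin peak, and together they spanned 691 bp. The summits lay 41 bp apart. Over the 1291 regions called in both stress lists the median distance was 14 bp, and 1107 of them (85.7%) had summits as near to each other as those at Flcn or nearer. Both summits sat close to the middle of their peaks, at 49.2% of the width in starvation and 50.1% in tunicamycin.

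No TFE3 peak was called at Flcn in control cells. The nearest control peaks were 2077 kb before the window, at 57533223 to 57533380, and 956 kb after it, at 60590901 to 60591095. In both stress lists the next peak before the window was 404 kb away, and the next after it was 343 kb away in starvation (59978454 to 59978703, fold 4.51) and 956 kb away in tunicamycin (60590814 to 60591394, fold 12.6). In the union of the 3 lists, 12.3% of the 3415 regions had a control peak, 50.1% a starvation peak and 81.3% a tunicamycin peak. The pattern seen at Flcn, both stress lists without control, was that of 1122 regions (32.9%), and 88.3% of starvation peaks and 93.9% of tunicamycin peaks had no control peak. A missing control peak was therefore usual in these lists.

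It was less usual at the rank that Flcn held in the starvation list. Of the 69 starvation peaks ahead of it, 66 overlapped a control peak (95.7%, interval 87.8 to 99.1), and of the 50 ranked on either side, 86 of 100 did (86.0%, 77.6 to 92.1). The other 3 ahead of it without a control peak were on chromosome 3 from 87981503 to 87981905 (fold 17.2, 91 tags), chromosome 15 from 81353496 to 81353965 (14.4, 98 tags) and chromosome 12 from 80397066 to 80397543 (15.7, 83 tags), and each also had a tunicamycin peak. Flcn was thus the fourth strongest starvation peak by score among the 1511 that had no control peak, level with 1 other at the same score. This comparison was chosen after the values were seen and has no test. In the tunicamycin list, 154 of the 378 peaks with a higher score than Flcn overlapped a control peak (40.7%, 35.7 to 45.9), and 4 of the 100 nearest in rank did (4.00%, 1.10 to 9.93).

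Depth bears on how many tags the control library could have held at Flcn without a call. The control library was 1.54 times as deep as the IgG library, starvation 1.62 times and tunicamycin 2.14 times. Reaching the lowest −log10 p of the control list (5.85) took 17 tags over the genome-wide background of 1.79 tags. It took 22 over a local background of 3 IgG tags, the value under the tunicamycin summit. Over 4 IgG tags, the value under the starvation summit, it took 25. The cutoff set for the peak caller is not given and may be lower. The fewest tags under any control peak were 19. The 97 starvation tags would be 92.2 at the depth of the control library (74.8 to 113), or 71.2 if also scaled to its shorter fragments (149 bp against 193 bp, taken from the shortest peak of each list). The 85 tunicamycin tags would be 61.0 (48.7 to 75.4), or 42.8 with the fragment length. All 4 scaled values are above the highest of these numbers, 25 tags. The backgrounds of 3 and 4 IgG tags were read from the stress lists, and the background at Flcn in the control list is not known. The scaling covers depth and fragment length only, not how strongly each library was enriched. The most tags under any peak were 118 in control, 223 in starvation and 306 in tunicamycin. The highest folds were 15.3, 25.8 and 27.2 in the same order. Whether occupancy at Flcn equal to that of a stress library would have been called in control was not tested. Occupancy below 17 to 25 tags, depending on the local background, would have fallen under the lowest −log10 p of the control list and cannot be set to 0.

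**Figure D1:**
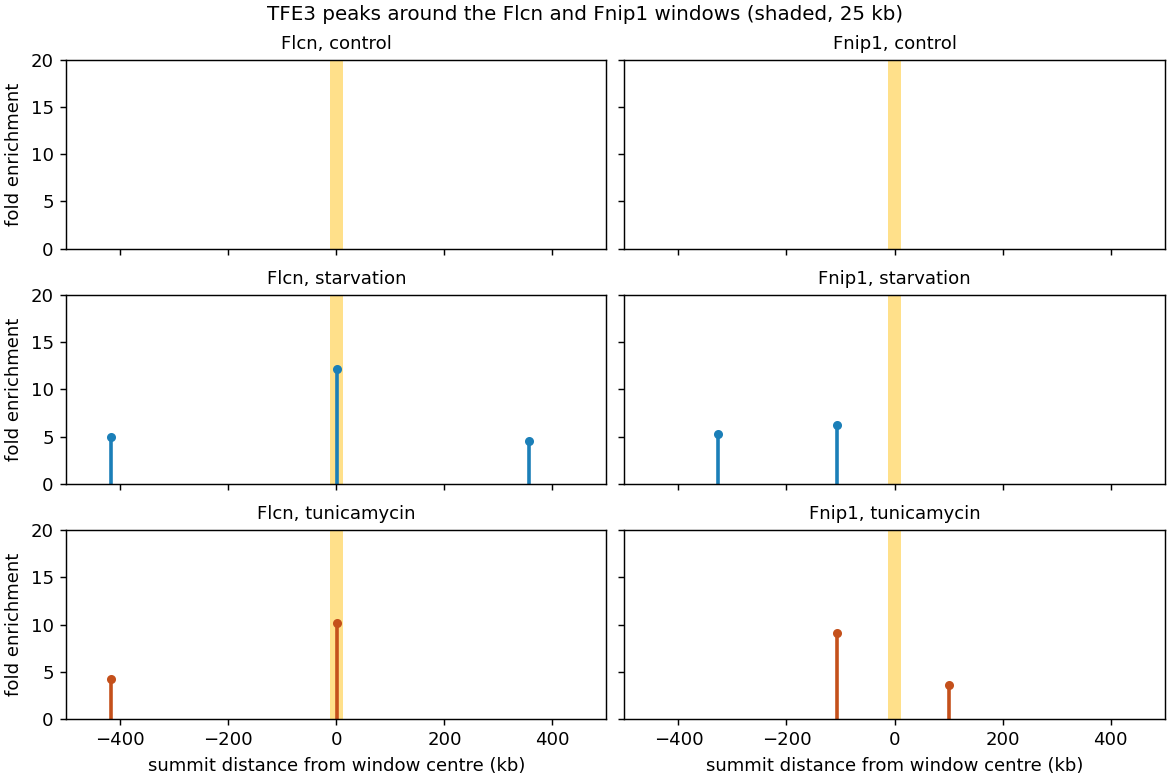
TFE3 peaks within 500 kb of the centre of the Flcn window (left) and the Fnip1 window (right) in the control, starvation and tunicamycin lists; each stem is 1 called peak, placed by its summit distance in kb and with the authors' fold enrichment as height, and shading marks the 25 kb window. The Flcn window holds 1 peak in each stress list, at folds of 12.2 and 10.2, and the Fnip1 window holds none.

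Flcn was higher in the starvation library than in the tunicamycin library once depth was taken into account. At the depth of the IgG library, the summit held 60.0 tags in starvation (48.6 to 73.2) and 39.6 in tunicamycin (31.6 to 49.0), a ratio of 1.51 (exact binomial interval of the tag numbers 1.12 to 2.05, counting error only). The ratio of the deposited folds was smaller, at 1.20, because the local background was 4 IgG tags under the starvation summit and 3 under the tunicamycin summit. Those backgrounds are small counts, with Poisson intervals of 1.09 to 10.2 and 0.619 to 8.77. They were 1.72 and 1.18 times the genome-wide background of their lists. Against the genome-wide background in both lists the folds would be 18.4 in starvation and 11.4 in tunicamycin, a ratio of 1.60.

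Most regions called in both stress lists leaned the other way. Over the 1279 of these regions with recovered tags in both lists, the log2 ratio of depth-scaled tags, tunicamycin over starvation, had a median of 0.31 (interquartile range 0.01 to 0.56). At Flcn it was −0.60, and 27 of the 1279 regions (2.11%) had a ratio as low or lower. For the deposited folds the median log2 ratio over 1291 regions was 0.20 (interquartile range −0.08 to 0.47), the Flcn ratio was −0.26, and 182 regions (14.1%) were as low or lower. Flcn thus stood far out in tags and only moderately so in fold, and the 2 scales differ by the IgG background. Fragments were longer in the tunicamycin library (212 bp against 193 bp), which adds tags to a summit there. Because each condition is 1 library, a difference between conditions and one between libraries cannot be told apart.

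**Figure D2:**
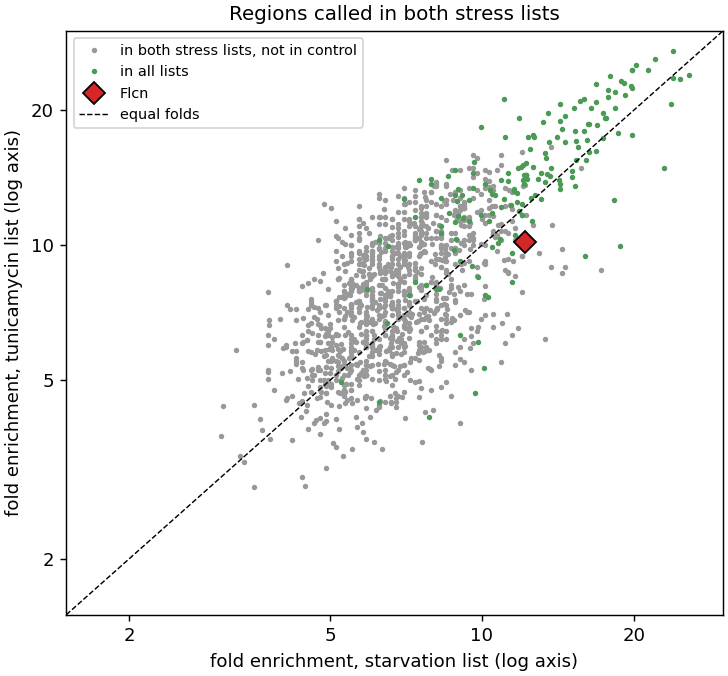
Authors' fold enrichment under starvation (horizontal, log axis) and under tunicamycin (vertical, log axis) for the 1291 regions called in both, in grey for the 1122 without a control peak and in green for the 169 with one. Flcn (red diamond, 12.2 and 10.2) lies below the dashed line of equal folds, while 880 regions lie on or above it.

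The Flcn peak was among the widest of both stress lists. It ranked 8 of 1712 by width in starvation, at 2.56 times the median width of 266 bp, and 21 of 2776 in tunicamycin, at 2.21 times the median of 286 bp. Of the 69 starvation peaks with a higher score, 67 were narrower and 2 wider, while 7 of all 1712 were wider. Of the 378 tunicamycin peaks with a higher score, 363 were narrower and 15 wider, while 20 of all 2776 were wider. Few peaks of any score were wider than Flcn, so the counts of narrower peaks follow from its width ranks. Among the 1122 regions in both stress lists without control, where median widths were 265 and 331 bp, Flcn ranked 5 by starvation width and 9 by tunicamycin width. In the same regions it ranked 4 by starvation score and 218 by tunicamycin score. Whether the wide peak holds more than 1 binding position cannot be read from a list with 1 summit per peak.

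**Figure D3:**
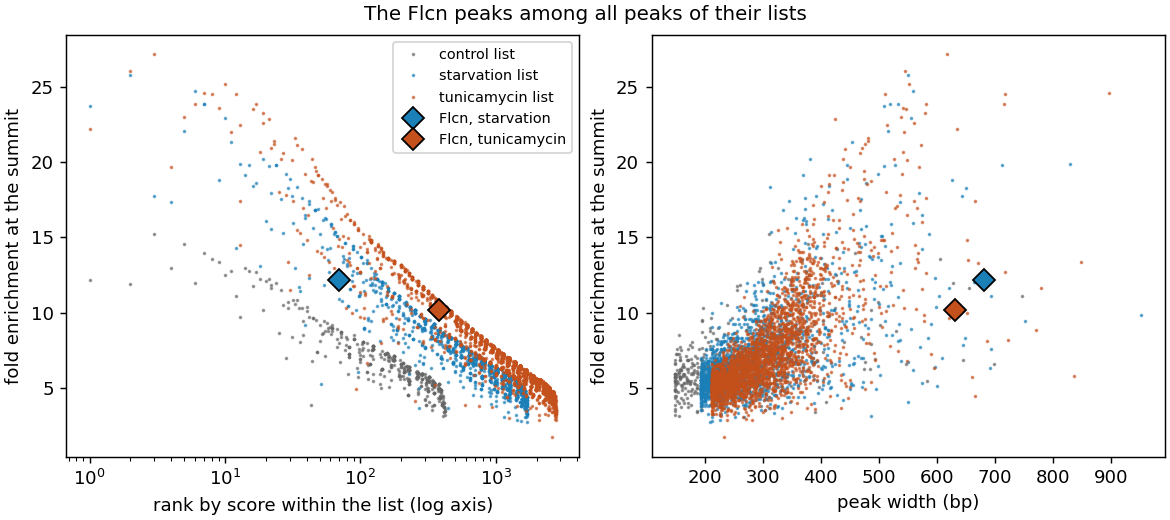
Authors' fold enrichment of every peak of the 3 lists against rank by score (left, log axis) and peak width in bp (right); each dot is 1 peak and diamonds mark Flcn. The Flcn peaks sit at ranks 70 and 379, and at widths of 681 and 631 bp they lie to the right of nearly all peaks of similar fold.

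Gene order limits how the peak can be assigned. Genes of RefSeq on GRCm38.p6 were ordered by their lowest coordinate. The next after Flcn were the lncRNA Gm16062, on the opposite strand, and then Cops3, a COP9 signalosome subunit. The gene just before Flcn was Pld6, a mitochondrial phospholipase. Ends were not compared, so whether Gm16062 overlaps Flcn or lies beyond its start was not determined. Distances from the mm9 peak to these genes were not measured, and the lists do not say which gene it belongs to.

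At Fnip1 no TFE3 peak was called in control, starvation or tunicamycin. The nearest starvation peak lay 94.1 kb before the window, from 54145643 to 54145941 (fold 6.25, 32 tags, rank 1022). The tunicamycin list had a peak at that place too, from 54145613 to 54145960 (fold 9.08, 67 tags, rank 614). On the other side, the nearest tunicamycin peak lay 87.6 kb after the window, at 54352629 to 54352856, and was one of the weakest of its list, with a fold of 3.54, 36 tags and rank 2762 of 2776. The nearest starvation and control peaks on that side both lay 753 kb away, at 55017562 to 55018052 and 55017756 to 55017910, and the nearest control peak before the window was 2425 kb away. For scale, the median gap between neighbouring summits on chromosome 11 was 408 kb in starvation, 411 kb in tunicamycin and 2515 kb in control. Over the genome-wide background a call needed 17 tags in control, 20 in starvation and 24 in tunicamycin, so weaker occupancy at Fnip1 was not detectable at this depth, and a local background above the genome-wide one would raise these numbers.

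The wider folliculin, Rag and mTORC1 pathway could be compared by promoter sequence only, since mm9 positions of its other genes were not used here. Of 28 listed genes, 27 had a RefSeq promoter, with 34 promoters in all. CACGTG was present in 6 of the 34 (17.6%, beside 7.15% of all promoters), those of Fnip1, of Rragb and Rragc, which encode Rag GTPases, of Lamtor1 and Lamtor4, subunits of the Ragulator complex that anchors the Rags to lysosomes, and of Rheb, the GTPase that activates mTORC1. GTCACGTG was in 2 (5.88%, beside 2.25% of all promoters), those of Rheb and Rragb. CATGTG was in 3 (8.82%, beside 14.15%), those of Lamtor1, Lamtor2 and the AMPK subunit gene Prkag2. TGACGTCA was in 2 (5.88%, beside 1.79%), those of Flcn and Mitf, the latter encoding a relative of TFE3. This sequence was chosen because it had been seen in Flcn, so its share here includes the match that prompted the search. TCATGTGA was in 2 (5.88%, beside 0.986%), those of Lamtor1 and Lamtor2. TCACGTGA was in 0, beside 0.974% of all promoters. Every other matched gene of the list, Fnip2 and Rragd among them, had none of these motifs.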

How the data were processed

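ChIP-seq with a TFE3 antibody was analysed from 3 deposited peak lists, 1 library per condition, each called against 1 IgG library. The submitters' processing notes name Bowtie, MACS2 and mm9; versions and parameters are not given in the sources used here. The authors deposited for each peak its position, a score, a linear fold ratio, −log10 p and −log10 q values, and the summit offset. The score equalled the whole part of 10 times −log10 q in 100% of peaks. Positions are printed 1-based, so a summit is start field plus offset plus 1. Tags at a summit were recovered with MACS2's formulas as assumed here (fold: scaled tags plus 1 over background plus 1; p: Poisson tail), within 0.004 in −log10 p, for 422 of 422 control, 1703 of 1712 starvation and 2766 of 2776 tunicamycin peaks; the recovery was tested on simulated data. Peaks overlapping by at least 1 bp were merged into regions. The 2 genes, the pathway list and the comparisons were chosen with earlier results of these data known. Named peaks were all members, the nearest peaks outside each window, the rank neighbours and the 3 regions nearest in fold. For the rank neighbours, ties on score were ordered by p, then fold, then chromosome name and start. The 3 starvation peaks of higher score without a control peak were added after their values were seen. Alternatives covered window size, score threshold, list length, merging, the ranked quantity and the overlap rule. Scripts ran under Python 3.11.15. Distributions and intervals came from scipy 1.17.1, tables from pandas 2.3.3 and figures from matplotlib 3.10.9.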

Additional observations from a re-analysis of the deposited data

How the results depend on the processing

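With windows widened by 25000 bp or narrowed by 5000 bp on each side, a common score of at least 68, the top 422 peaks of each list, or peaks within 500 bp merged, the number of peaks in each window was the same in all 30 repeats: 1 at Flcn in starvation and tunicamycin, 0 at Flcn in control and 0 at Fnip1 in each list. These settings could not have changed the counts. The nearest peak outside either window lay 87.6 kb away, beyond the widening, and dropping or merging peaks cannot fill an empty window. The Flcn summits lay 0.925 and 0.966 kb from the window centre, with scores of 419 and 253 and ranks of 70 and 379, inside every cut. The 30 repeats are therefore no evidence about the calls themselves. Of 11 other planned repeats, 10 stayed within the interval or gave the same overlap. The exception was the starvation peak ranked by fold, where 5.72% of the list stood at or above it. The summit overlap also held at 50% reciprocal overlap and at summits within 50 bp. Taking the genome-wide background in both lists, chosen after seeing the data, moved the ratio of Flcn folds from 1.20 to 1.60. No paired analysis was possible because each group had 1 library.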

Other observations

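The peaks next to Flcn in score were narrower than the Flcn peak in both stress lists. This follows from its width ranks, 8 of 1712 in starvation and 21 of 2776 in tunicamycin, since few peaks of any score were wider. In the starvation list the peak just above it was on chromosome 11 from 55017562 to 55018052 (score 420, fold 10.9, 104 tags, width 491 bp) and the one just below on chromosome 19 from 55177522 to 55178014 (score 419, fold 12.1, 96 tags, width 493 bp), and both overlapped a control peak. In the tunicamycin list the neighbours were on chromosome 2 from 29918019 to 29918417 (score 255, fold 10.1, 84 tags, width 399 bp) and from 178008751 to 178009107 (score 253, fold 10.2, 85 tags, width 357 bp), and neither overlapped one. The chromosome 19 peak and the peak from 178008751 tied with Flcn on score, so only the ordering of ties placed them after it.

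Of the other 1121 regions in both stress lists without control, the 3 nearest to Flcn in log2 fold (distance 0.07 to 0.10) were on chromosome 8 from 77617320 to 77617646 (folds 11.6 in starvation and 10.3 in tunicamycin, 64 and 80 tags), chromosome 9 from 53192454 to 53192766 and chromosome 4 from 123594270 to 123594789 (both 12.0 and 9.47, 63 and 70 tags). At similar folds these regions had fewer starvation tags than the 97 at Flcn. Because they were chosen by fold, fewer tags only restate a lower IgG background than the 4 tags under the Flcn starvation summit. Their widths were 313 to 520 bp in starvation.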
